A study of Mus musculus with 4 samples.

Results

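The Schlafen genes described here are the mouse genes Slfn1, Slfn2, Slfn5, Slfn8 and Slfn9, 5 of 18194 genes with a probe set of their own on the array. They were chosen by symbol, with earlier results of these data known: every probe set that the platform annotation gives a single one of these symbols was read, 9 of 45101 probe sets in all. Each gene is represented by its brightest probe set, the one with the highest mean over the 4 arrays, and the other probe sets serve as checks. A gene's probe set was thus selected on brightness over both groups. The values below describe genes chosen with earlier results known, so their p-values are no independent support. The samples were group 2 innate lymphoid cells (ILC2), tissue lymphocytes that secrete type 2 cytokines and lack antigen receptors of their own, from 2 Ets1-deleted and 2 littermate control samples of C57BL/6 mice, with 1 Affymetrix array each. Ets1 belongs to the ETS family of transcription factors. The sources used here give neither how the deletion was made nor whether the samples of a group came from separate animals, and the p-values can then reflect technical spread alone. Cells of both groups were cultured for 2 weeks with IL-33 and IL-7 over OP9-DL1 stroma, which carries a Notch ligand, and ICOS-positive cells were then sorted for RNA. The comparison, Ets1-deleted minus control, asks which genes depend on Ets1 in these cells.

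The Schlafen family takes its name from the German word for sleep, after the growth arrest that its founding members caused in mouse T cells. Its proteins share a core domain related to RNA-cleaving enzymes, and several family members bind or cut transfer RNA. Slfn1 and Slfn2 encode short proteins made of little more than this core, while Slfn5, Slfn8 and Slfn9 encode long proteins with an added helicase-like part. Many family members are induced by type I interferon. In T cells Slfn2 is needed for quiescence, the resting state, and for survival after activation.

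Ets1 itself, the deleted gene, read 138 and 180.2 intensity units in the Ets1-deleted arrays, against 1272 and 1231 in the controls, a log2 difference of -2.99 ± 0.13 (SE, n = 2 per group; limma, adjusted p = 2.17e-08). Array medians lay between 96.5 and 97.7 intensity units, and their 5th percentiles between 55.6 and 56.4. A gene was tested where its brightness reached 97.4 intensity units, the 50th percentile of all probe sets, which left 10873 genes. All 13 measured ILC2 markers passed this limit. Markers of other cells differed between the groups too. The summed level of 12 T cell markers was 7254 to 7536 intensity units in the Ets1-deleted arrays and 3814 to 3991 in the controls, that of 15 myeloid markers 5855 to 6052 and 3007 to 3297, and that of 11 mast cell and basophil markers 3962 to 4119 and 2418 to 2444. Much of the mast cell gap was Cpa3, without which the sums were 2622 to 2701 in the Ets1-deleted arrays and 2332 to 2365 in the controls. Single T cell markers differed by more than their sum. In the Ets1-deleted arrays Cd3e was 9.74-fold, Cd247 8.62-fold, Cd3d 5.98-fold and Cd28 4.54-fold higher. Cd3g, the brightest of the list, was 1.41-fold higher, and Zap70 was 2.19-fold lower. The controls of Cd3e (102.8 and 81.6) and Cd247 (115 and 96.4) lay near the limit. Below the limit on every array lay 4 of the T cell markers (Cd4, Cd8a, Cd8b1 and Cd5), 1 myeloid and 1 mast cell marker. The part of these cells in the results below was not tested. In a sorted population measured in bulk, fewer cells of a type and less RNA per cell cannot be told apart.

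Of the 5 Schlafen genes, 4 were bright enough to test, and all 4 were lower in the Ets1-deleted arrays at an adjusted p below 0.05 in limma. Among all tested genes 12.8% were called lower, 13.9% higher and 26.7% in either direction. Slfn8 and Slfn2 fell by more than 2-fold, Slfn9 by 1.42-fold and Slfn5 by 1.26-fold. In each of the 4 the groups did not overlap, which was so, in the same direction, for 31.7% of all tested genes, while 30.9% were higher with no overlap. The median log2 difference of the 4 was -0.85, beside -0.0037 over all tested genes. The fifth gene, Slfn1, was too dim to test. No Schlafen gene was called higher in limma, and 0 were higher at an unadjusted p under 0.05. With 2 against 2 arrays an exact permutation test cannot give a two-sided p under 0.333, so the calls rest on variance that limma shares across genes. With each gene's own variance alone, 0 of the 4 were called (adjusted p between 0.120 and 0.167, with all 4 under an unadjusted p of 0.05), and 13 of the 10873 genes were.

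**Figure D1:**
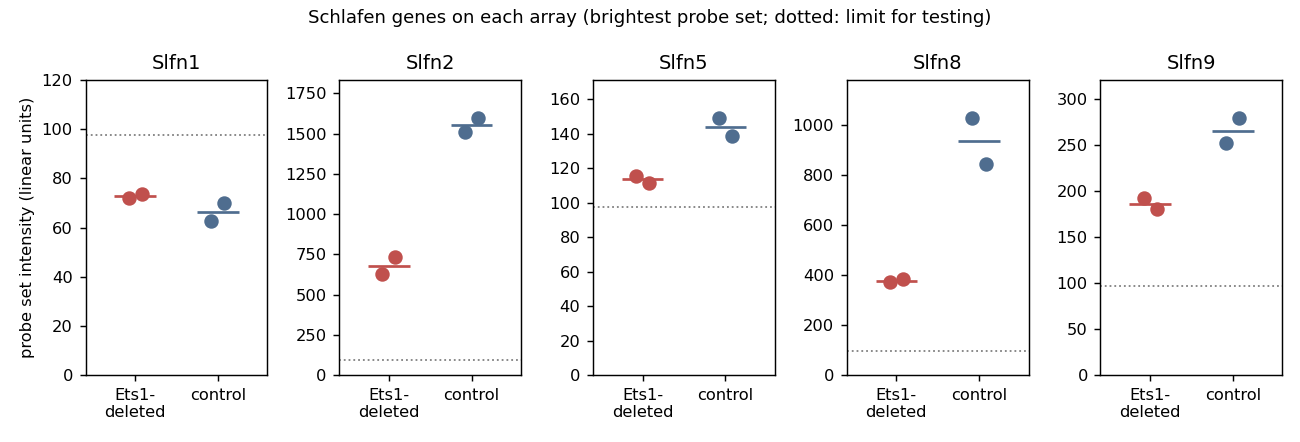
Probe set intensity (vertical axis, linear units from 0, a scale of its own for each gene) of the brightest probe set of each Schlafen gene. Points are arrays, short lines the mean of 2 arrays, and the dotted line the 97.4 units needed for testing; Slfn2, Slfn5, Slfn8 and Slfn9 lie lower in the Ets1-deleted arrays with no overlap, and Slfn1 lies below the dotted line on every array.

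Slfn8 and Slfn9 are neighbouring, closely related genes of the long form. The windows around their start sites are shown because they are near copies of each other. Each runs from 250 bases before to 50 bases after the start (RefSeq, GRCm38.p6, both on the minus strand, chr11:83020761-83021060 for Slfn8 and chr11:82991781-82992080 for Slfn9), and capitals mark the letters that match an interferon-stimulated response element, searched on both strands as GAAA, any 2 bases and GAAA again, and read here on the opposite strand.
Slfn8: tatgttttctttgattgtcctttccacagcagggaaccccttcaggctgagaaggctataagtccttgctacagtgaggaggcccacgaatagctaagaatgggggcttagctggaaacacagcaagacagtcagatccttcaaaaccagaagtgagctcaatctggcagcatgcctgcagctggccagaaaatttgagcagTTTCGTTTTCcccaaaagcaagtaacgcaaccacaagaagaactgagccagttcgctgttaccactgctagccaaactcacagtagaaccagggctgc
Slfn9: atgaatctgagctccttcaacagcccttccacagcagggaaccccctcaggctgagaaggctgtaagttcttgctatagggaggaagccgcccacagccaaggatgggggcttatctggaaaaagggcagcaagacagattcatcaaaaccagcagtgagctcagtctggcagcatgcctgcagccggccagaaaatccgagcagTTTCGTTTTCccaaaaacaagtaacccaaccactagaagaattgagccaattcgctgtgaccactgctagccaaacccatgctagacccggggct
Aligned with free ends, the pair was identical at 246 of 295 aligned bases (83.4%). Under the same scoring no other pair of the 5 windows aligned over more than 44 bases. The capitals hold the same 10 letters in both, beginning 48 bases before the start in Slfn8 and 45 bases before it in Slfn9.

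Slfn8 read 373 and 383 intensity units in the Ets1-deleted arrays, against 1027 and 845 in the controls. The controls differed more from each other than the Ets1-deleted arrays did, and both lay far above them. The log2 difference was -1.30 ± 0.12 (SE; 95% interval -1.57 to -1.03), 2.46-fold lower, with an adjusted p of 8.43e-06 in limma. It was the 86th lowest of the 10873 differences. With any 1 array left out the difference stayed between -1.44 and -1.16.

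Slfn9 moved the same way and by less. Its brighter probe set read 193 and 181 intensity units in the Ets1-deleted arrays, against 253 and 279.5 in the controls, a log2 difference of -0.51 ± 0.11 (95% interval -0.76 to -0.26; limma, adjusted p = 0.00524). Its other probe set read 187 and 168 in the Ets1-deleted arrays, against 229 and 228 in the controls. Fitted with 1 row per probe set, that check gave -0.36 ± 0.11 (limma, adjusted p = 0.0350). So both Slfn9 probe sets were lower in the Ets1-deleted arrays with no overlap. With any 1 array left out the Slfn9 difference stayed between -0.58 and -0.44, and it was smallest without control 2. With a control left out, limma gave Slfn2, Slfn5, Slfn8 and Slfn9 the same SE of 0.17. The spread of Slfn9 itself thus did not enter those fits. The 95% intervals of Slfn8 and Slfn9 do not overlap, but the difference between the 2 genes was not tested. Whether transcripts of such close relatives reach each other's probes was not tested either, as the probes' own sequences were not used here.

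Slfn2 encodes the short protein that mouse T cells need to stay quiescent, and which shields transfer RNA from cleavage. It has a single probe set, which read 628 and 733 intensity units in the Ets1-deleted arrays, against 1509 and 1595 in the controls. All 4 arrays are far above the limit for testing. The log2 difference was -1.19 ± 0.12 (SE; 95% interval -1.45 to -0.93), 2.29-fold lower, with an adjusted p of 1.29e-05 in limma, the 107th lowest of all. Left-out arrays moved the difference between -1.30 and -1.08.

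The start-site window of Slfn2 (GRCm38.p6, plus strand, chr11:83064862-83065161) is shown for its match to a longer form of the ETS binding site, CAGGAAGT, in capitals and read on the opposite strand. The family of proteins to which Ets1 belongs binds sites with such a core.
Slfn2: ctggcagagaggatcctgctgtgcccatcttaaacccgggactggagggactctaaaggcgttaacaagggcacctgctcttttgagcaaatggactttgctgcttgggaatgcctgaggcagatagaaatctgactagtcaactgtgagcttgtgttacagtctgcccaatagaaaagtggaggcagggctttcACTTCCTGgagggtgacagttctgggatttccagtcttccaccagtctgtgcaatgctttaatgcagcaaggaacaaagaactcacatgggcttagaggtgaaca
The match begins 55 bases before the start. Of the 5 Schlafen genes described, Slfn2 and Slfn1 have it, Slfn1 at 74 bases before the start; of the 10 windows of the wider family, Slfn3 and Slfn4 have it as well, which makes 4. The 4 motifs searched were chosen after these windows had been read. Over all 32851 start-site windows of the genome, 3.33% hold these 8 letters on either strand, and 9.35% hold the shorter AGGAAGT within them. A match is a description of letters, not a sign of binding. Of the other genes with the match, Slfn3 was not called, and Slfn1 and Slfn4 were too dim to test.

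Slfn5, another gene of the long form, was the faintest of the called Schlafen genes relative to the limit and gave the least certain result. Its window (GRCm38.p6, plus strand, chr11:82951852-82952151) is shown because it too matches the pattern of the interferon-stimulated response element. The match is in capitals, here on the gene's own strand and 155 bases before the start. Its letters differ from those shared by Slfn8 and Slfn9 and lead straight into a run of the base A.
Slfn5: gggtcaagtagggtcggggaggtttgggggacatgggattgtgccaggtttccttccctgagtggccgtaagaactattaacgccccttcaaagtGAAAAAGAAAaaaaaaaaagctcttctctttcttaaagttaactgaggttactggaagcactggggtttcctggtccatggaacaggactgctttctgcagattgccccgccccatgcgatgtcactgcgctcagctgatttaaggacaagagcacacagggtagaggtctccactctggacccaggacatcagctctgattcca
That pattern occurs on either strand in 3.44% of all start-site windows, and in the windows of 3 of the 5 Schlafen genes (Slfn5, Slfn8 and Slfn9). Among genes of an interferon-stimulated list it occurs in 15 of 24 with a window (62.5%). The counts for the Schlafen genes and for this list are of genes, while the 3.44% is a share of windows. A Schlafen gene was counted by its first listed window, and a gene of the list by any of its windows. A gene can have several windows, so these shares are not directly comparable. A gamma-activated site, TTCNNNGAA, was found in 8.30% of all windows and in 0 of the 5, which says only that these letters are not in these windows.

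The brightest Slfn5 probe set read 116 and 112 intensity units in the Ets1-deleted arrays, against 149 and 139 in the controls. Its log2 difference was -0.34 ± 0.11 (95% interval -0.58 to -0.10; limma, adjusted p = 0.0399). A second probe set past the limit read 97.9 and 100.6 in the Ets1-deleted arrays, against 95.9 and 104.4 in the controls, where the groups overlapped (-0.01 ± 0.11; limma, adjusted p = 0.958). The third, below the limit, read 64 and 54.8 in the Ets1-deleted arrays and 66.8 and 65.9 in the controls. Averaging its 3 probe sets ended the Slfn5 call (-0.17, adjusted p = 0.132 in limma). It was also lost without any 1 array: -0.37 without Ets1-deleted 1 (adjusted p = 0.0670 in limma), -0.31 without Ets1-deleted 2 (adjusted p = 0.114), -0.29 without control 1 (adjusted p = 0.252) and -0.39 without control 2 (adjusted p = 0.0899). Slfn5os, a noncoding gene that overlaps Slfn5 on the other strand, read 78.4 and 77.4 in the Ets1-deleted arrays, against 78.1 and 67.6 in the controls, below the limit.

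**Figure D2:**
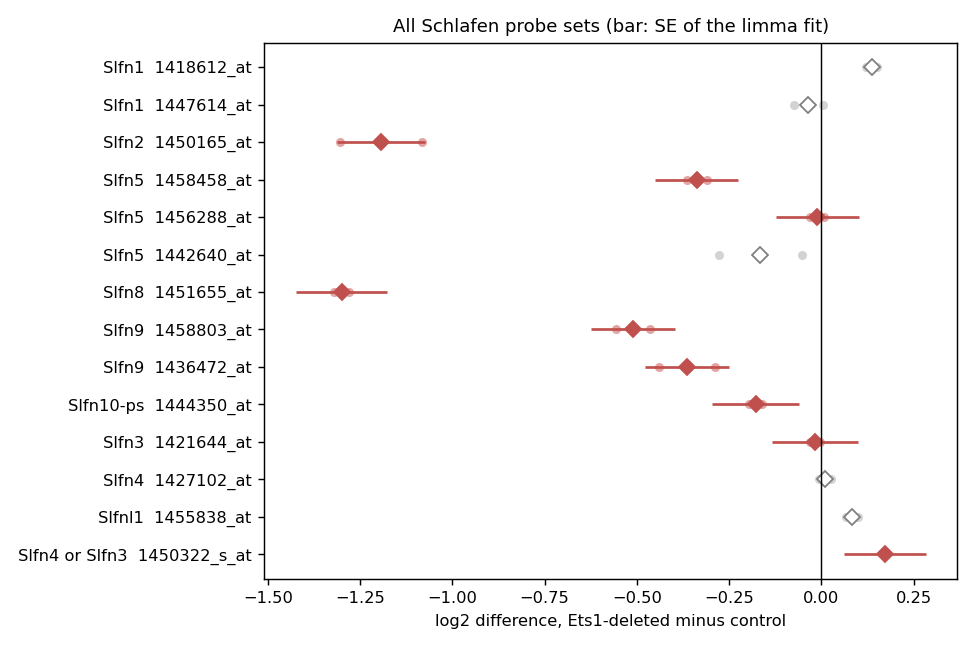
Log2 difference (horizontal axis, Ets1-deleted minus control) of the 9 probe sets of the Schlafen genes, then of other family members. Diamonds are group differences, bars the SE of the limma fit, small dots each Ets1-deleted array minus the control mean, and open diamonds probe sets below the limit for testing; both Slfn9 probe sets lie left of 0, while of the Slfn5 probe sets past the limit 1 lies at -0.34 and the other at -0.01.

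Counted by probe set, 6 of the 9 passed the limit, and 5 of these 6 were called lower with 1 row per probe set, where 11.3% of all tested probe sets were. The same 5 showed no overlap between the groups, against 31.1% of tested probe sets in that direction. The exception past the limit was the second Slfn5 probe set.

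Slfn1, the gene whose product arrests T cell growth when overexpressed, was near the floor of the arrays. Its brighter probe set read 71.9 and 73.4 intensity units in the Ets1-deleted arrays, against 62.5 and 69.9 in the controls, a log2 difference of 0.14 with no test. The other probe set read 45.5 and 48 in the Ets1-deleted arrays and 48.1 and 47.7 in the controls. Both are under the limit on every array, so a change in Slfn1 was not detectable at this signal. With no filter the adjusted p of Slfn1 was 0.418 in limma.

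The family members that were not among the 5 gave no called change. Slfn3 read 134 and 131 intensity units in the Ets1-deleted arrays, against 143 and 126 in the controls, with overlapping groups (-0.02 ± 0.11; limma, adjusted p = 0.937). Slfn10-ps, a pseudogene between Slfn8 and Slfn2, read 100.05 and 97.7 in the Ets1-deleted arrays, against 104 and 119.9 in the controls (-0.18 ± 0.12; limma, adjusted p = 0.294). These were the 2 of 4 measured that could be tested; 0 were called in limma and 0 had an unadjusted p under 0.05. Slfn4, at 56.2 to 59.2 on all arrays, and Slfnl1, at 71.2 to 78.5, were below the limit. A probe set shared by Slfn3 and Slfn4, which cannot be assigned to either, read 105.5 and 105.4 in the Ets1-deleted arrays and 96 and 91.3 in the controls (0.17; limma, adjusted p = 0.301 over all probe sets past the limit).

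Apart from Slfnl1, the Schlafen genes lie side by side on chromosome 11, in the order Slfn5, Slfn9, Slfn8, Slfn10-ps, Slfn2, Slfn1, Slfn4, Slfn3 and Slfn14. The 4 called genes thus lie toward the Slfn5 end of the cluster, with the uncalled Slfn10-ps among them. Toward the other end only Slfn3 could be tested, as Slfn1 and Slfn4 were too dim and Slfn14 was not measured. The place of the calls therefore depends on which genes could be tested. The genes that flank the cluster were read as well, the 5 nearest protein-coding ones with a probe set on each side. Of these 10, 5 were tested; 0 were called in limma and 0 had an unadjusted p under 0.05. Before Slfn5, Nle1 differed by 0.03 ± 0.12, Rad51d by -0.05 ± 0.11 and Rffl by 0.02 ± 0.11. After Slfn14, Ap2b1 differed by 0.09 ± 0.11 and Taf15 by -0.16 ± 0.11.

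**Figure D3:**
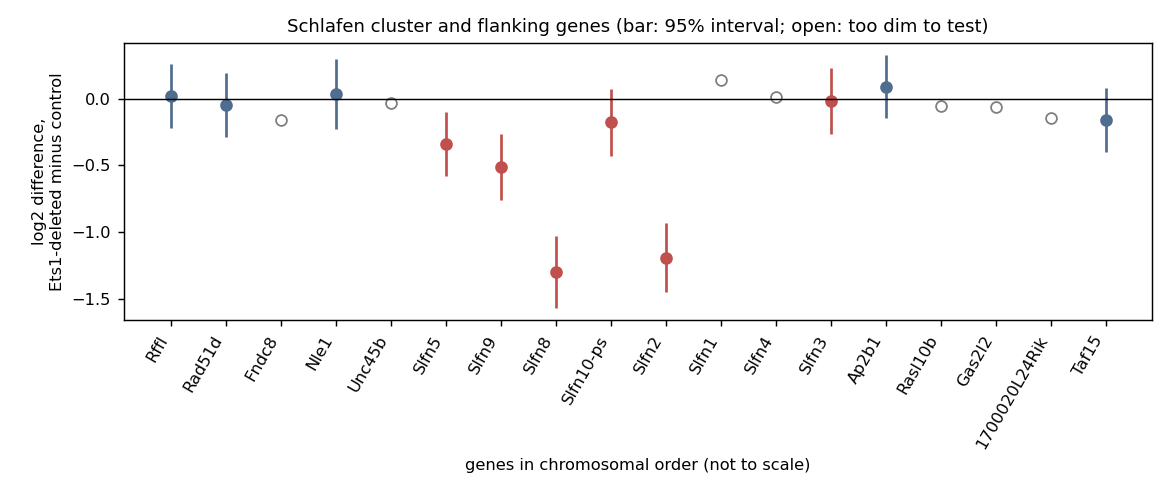
Log2 difference (vertical axis, Ets1-deleted minus control) of the Schlafen genes (red) and of 5 measured genes on each side (blue), in chromosomal order and not to scale. Bars are 95% intervals and open points genes too dim to test; Slfn8 at -1.30 and Slfn2 at -1.19 lie lowest, and the intervals of the tested flanking genes include 0.

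**Figure D4:**
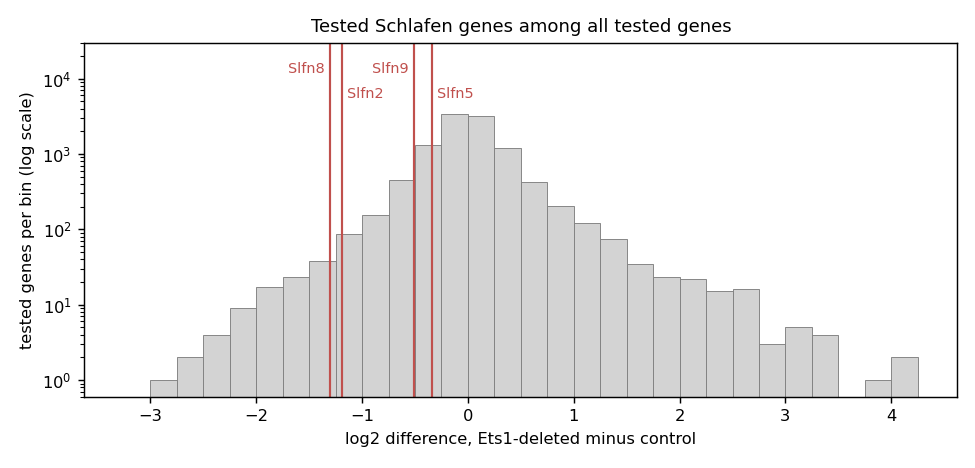
Number of tested genes (vertical axis, log scale) by log2 difference, Ets1-deleted minus control (horizontal axis, bins of 0.25), with red lines at the 4 tested Schlafen genes. Slfn8 and Slfn2 stand in the thin lower tail as the 86th and 107th lowest of 10873 genes, and Slfn9 and Slfn5 nearer the centre as the 764th and 1444th.

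Since many Schlafen genes respond to interferon, other interferon-stimulated genes were read beside them. Of 29 tested, 9 fell (31.0%, beside 12.8% of all tested genes) and 3 rose (10.3%, beside 13.9%), with a median of -0.25. Ifi27l2a, an interferon-induced gene, read 397 and 435 intensity units in the Ets1-deleted arrays, against 927 and 975 in the controls (-1.19 ± 0.11; limma, adjusted p = 8.10e-06). Oas3 and Ifit1, antiviral effector genes, fell by 0.86 and 0.75 on the log2 scale. Ifit3, Mx1, Parp14, Xaf1, Gbp2 and Irf7 fell by 0.35 to 0.51. The genes that rose were Oasl2 (0.94), Usp18 (0.71) and Isg20 (0.44).

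**Figure D5:**
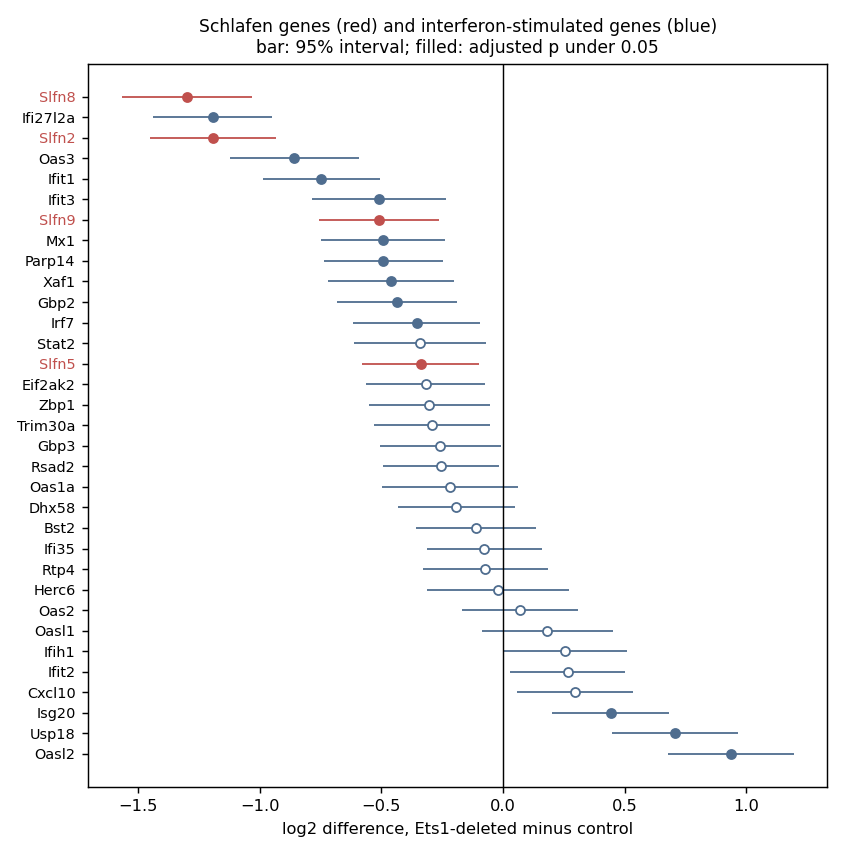
Log2 difference (horizontal axis, Ets1-deleted minus control) of the 4 tested Schlafen genes (red) and 29 tested interferon-stimulated genes (blue), sorted. Bars are 95% intervals and filled points genes with an adjusted p under 0.05 in limma; the genes run from -1.30 for Slfn8 to 0.94 for Oasl2, and 9 blue genes are called lower and 3 higher.

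Of 17 interferon receptors and signal transducers, 3 rose and 2 fell, with a median of 0.03. The 29.4% called in either direction is near the 26.7% of all tested genes, so the count says nothing particular of this list. Ifngr1, a chain of the interferon gamma receptor, rose 2.82-fold. On the log2 scale the transcription factor gene Irf8 rose by 1.24, and Usp18, whose product restrains the type I receptor, by 0.71. Irf8 read 102.8 and 89.3 in the controls, near the limit for testing. Socs3, a feedback inhibitor of cytokine signalling, fell by 0.37 and the kinase gene Jak1 by 0.33. The type I receptor genes Ifnar1 and Ifnar2 were not called on their brightest probe sets, at 0.08 ± 0.12 and -0.20 ± 0.13. Their probe sets disagreed: another past the limit differed by -0.41 for Ifnar1, and another by 0.23 for Ifnar2.

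Other genes of lymphocyte quiescence, the state for which Slfn2 is known, were read too. Of 23 tested, 4 rose (17.4%, beside 13.9% of all tested genes) and 5 fell (21.7%, beside 12.8%), with a median of -0.13. Vsir, which encodes the inhibitory receptor VISTA, fell by 1.11 ± 0.11 and the antiproliferative gene Btg2 by 0.69. Klf4 rose by 0.98, Bach2, a repressor gene, by 1.04 and Lef1 by 0.66. Of 23 cell cycle genes, 1 rose and 2 fell, with a median of -0.05, and the 13.0% called lies below the 26.7% of all tested genes. Mki67, a marker of cycling cells, fell by 0.66 and the cyclin gene Ccnd2 by 0.53, while Ccnd3 rose by 0.39 on its brightest probe set and differed by -0.41 on another.

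Of 13 tested genes of transfer RNA cleavage and transfer RNA stress, 1 rose and 2 fell, with a median of -0.03. The 23.1% called in either direction is near the 26.7% of all tested genes, and the genes named next are given as single values. Rnh1, which encodes the inhibitor of angiogenin and related ribonucleases, read 2357 and 2419 intensity units in the Ets1-deleted arrays, against 1230.1 and 1377 in the controls (0.88 ± 0.11; limma, adjusted p = 0.000108). The gene of angiogenin itself, Ang, read 82.6 and 77.9 in the Ets1-deleted arrays and 71 and 86.7 in the controls, below the limit. Map3k20, a kinase gene of the ribosome stress response, fell by 0.55 and the ribonuclease gene Rnaset2a by 0.53.

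The genes most like each Schlafen gene across the 4 arrays were found by the root mean square distance between log2 values centred on each gene's mean. For Slfn2 these were Grk5, a receptor kinase gene (distance 0.03), Ifi27l2a (0.03) and Prkcq (0.04), the gene of protein kinase C theta. For Slfn8 they were Apobec1, a cytidine deaminase gene, Fzd6, a Wnt receptor gene, and Hpgds, the prostaglandin D synthase gene, at 0.06 to 0.07. For Slfn9 they were Pum2, 1700019D03Rik and Zfp248 (0.01 to 0.02), and for Slfn5 Prcp, Atxn7 and Pik3c2a (0.01). Small differences have many near neighbours in a table of this size, and 4 arrays give the measure little to rank on.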

How the data were processed

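The deposited values are probe set intensities of 4 arrays that the authors made with RMA, per the submitters' processing notes; biotin-labelled RNA came from a small-sample amplification, per the labels' protocols. Software, version and scaling are not given there. The lowest value was 39.5 and the highest 23291; this range led to reading them as linear, an inference, and turned into log2. Array medians nearly coincide, so no normalization was added. Such summaries level off near the array floor, which understates the fold of dim genes. Genes were named through the platform annotation, which gave 34958 probe sets 1 symbol, 932 several and 9211 none.

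Each gene's probe set with the highest geometric mean over the 4 arrays was tested if at least as bright as the median probe set. The test was lmFit and eBayes of limma 3.58.1 in R 4.3.3, two-sided, Benjamini-Hochberg adjusted over 10873 genes, threshold 0.05, with 2 residual and 9.75 prior degrees of freedom. It was tested on simulated data. The number of arrays limits the precision. Start-site windows came from RefSeq, GRCm38.p6.

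The members, lists and tests were chosen with earlier results of these data known, and the 4 motifs after the windows were read, so they carry no independent support. Named were Ets1, all Schlafen probe sets, the 5 nearest flanking genes a side, the 3 most similar genes per Schlafen gene, and list members, first the 4 of smallest p. Lists covered interferon, quiescence, cell cycle, transfer RNA and markers of 7 cell types. Alternatives concerned normalization, filter, probe sets, variances, thresholds, background, a replicate block and left-out arrays; an arithmetic mean as brightness was added after seeing the data.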

Additional observations from a re-analysis of the deposited data

How the results depend on the processing

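The number of Schlafen genes called lower, 4 of 4 tested, was 0 with ordinary variances, 2 (Slfn2 and Slfn8) in a test against 1.5-fold, and 3 without any 1 array, after averaging probe sets, and under the stricter filter, where Slfn5 was the gene missing. Of all tested genes 2900 were called, 13 with ordinary variances, 484 against 1.5-fold, 4797 probe sets with 1 row per probe set, and 2238 to 2736 genes with an array left out. The count of Schlafen genes called higher was 0 in each of the 18 alternatives. Over those alternatives Slfn2 lay between -1.30 and -1.08 and Slfn8 between -1.44 and -1.16 on the log2 scale, and both calls were lost with ordinary variances alone. Slfn9 lay between -0.68 and -0.44, and its call was lost with ordinary variances and against 1.5-fold. Slfn5 lay between -0.60 and -0.17 (adjusted p in limma between 0.0177 and 1), and the stricter filter at 193.8 intensity units left it untested. The lowest values of Slfn5 and Slfn9 came from subtracting the array floor. With a control left out, limma gave Slfn2, Slfn5, Slfn8 and Slfn9 the same SE of 0.17. Their calls there rest on the size of the difference alone. With a replicate block 4 Schlafen genes and 3252 genes in all were called; it changed no Schlafen call. Same-numbered samples deviated together only weakly (r = 0.17 across 10873 genes), and nothing in the labels pairs them. The cause of the other changes was not tested. Signal limits Slfn1 and Slfn4, which are under the limit for testing on every array.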

Other observations

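The marker lists gave these values, to be set beside 13.9% of all tested genes called higher and 12.8% lower. Of 13 tested ILC2 markers, 6 rose and 3 fell, with a median log2 difference of 0.35; their summed level was 29437 to 31704 intensity units in the Ets1-deleted arrays and 23793 to 25538 in the controls. Of 8 tested T cell markers, 5 rose and 1 fell (median 1.34), of 12 myeloid markers 10 rose and 0 fell (median 0.77), and of 8 mast cell and basophil markers 6 rose and 0 fell (median 0.38). Of 6 NK and ILC1 markers, 2 rose and 1 fell (median 0.22). Of 10 OP9 stroma and fibroblast markers, 1 rose and 3 fell (median -0.27), with a summed level of 3460 to 3478 intensity units in the Ets1-deleted arrays and 3179 to 3384 in the controls. That order rests on Timp3, without which the sums were 2581 to 2728 in the Ets1-deleted arrays and 3027 to 3257 in the controls. Of 2 tested B cell markers, Cd79b fell by 2.12 on the log2 scale and Vpreb3 was not called. A marker that is dim in the controls was tested only if it was bright enough in the Ets1-deleted arrays, so these medians do not stand for all markers of a list.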
